A study of Mus musculus with 4 samples.

Results

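The ATP-binding cassette (ABC) transporters were followed in sorted mouse skin tumour cells at 1 week after a carcinogen was stopped and while it was still given. The members were chosen by gene symbol, as every row of the deposited table that names a gene of the subfamilies Abca to Abcg with a number, which gave 50 of 22222 genes. Of these, 16 belonged to subfamily A, 10 to B, 10 to C, 4 to D, 1 to E, 3 to F and 6 to G. The family was picked, and the columns to set against each other were named, with levels of these genes already known, so the levels and differences of the members are a description. Counts of members called in fits over all genes are given beside the share of all genes called, and nothing is read from them. Family genes that carry other symbols (Tap1, Tap2 and Cftr) fall outside the rule. Tap1, a peptide transporter for antigen loading, was at 90.3 and 114 at 1 week, and 168 and 155 on DMBA.

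ABC transporters bind ATP with a conserved cassette and use its hydrolysis to move lipids, sterols, drugs, conjugates, haem precursors or peptides across membranes. Members of subfamilies E and F have the cassette without a membrane part and work on ribosomes. In epidermis ABCA12 loads lipid into lamellar granules for the skin barrier, in macrophages ABCA1 and ABCG1 export cholesterol, and ABCB1 and ABCG2 are known for exporting drugs from tumour cells.

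The tumours were keratoacanthomas, a squamous skin tumour able to regress on its own, induced over 20 weeks with the polycyclic hydrocarbon DMBA. Libraries came from 2 mice whose tumours were collected 1 week after DMBA was stopped (1 week) and from 2 other mice kept on it (on DMBA, week 0). All 4 mice had DMBA, so there was no untreated group. RNA was taken from cells sorted for the Tomato label and for P-cadherin, an adhesion protein of basal keratinocytes. The sources used here do not give the strain, age and sex of the mice or what drives the Tomato label. The 1-week libraries held 5551937 and 7662159 reads and the on-DMBA libraries 9678682 and 5635945, for libraries 1 and 2 of each group. Levels are in scaled CPM, a gene's reads relative to a scaled library size. Values are given in the order library 1, library 2, and differences are on the log2(scaled CPM + 0.5) scale, 1 week minus on DMBA.

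Markers of the sorted cells differed widely in level between libraries. Cdh3, which encodes P-cadherin, was at 42.8 and 30.4 at 1 week, and 325 and 3.23 on DMBA. It is part of the basal keratinocyte list. The summed level of 9 basal keratinocyte markers was 4461 and 3466 at 1 week, and 46011 and 544 on DMBA. For 8 fibroblast markers the sum was 46179 and 48835 at 1 week, and 222 and 40643 on DMBA. For 9 macrophage markers it was 11051 and 16020 at 1 week, and 9.74 and 26564 on DMBA. For 6 endothelial markers it was 524 and 1086 at 1 week, and 6.06 and 166 on DMBA. No marker of these 4 lists was at 0 in any library. On-DMBA library 1 was thus high in basal keratinocyte markers and low in the others, and the remaining 3 libraries carried large amounts of fibroblast and macrophage transcripts. In bulk RNA, fewer cells of a type and less RNA per cell cannot be told apart. The part of these marker levels in the results given below was not tested.

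**Figure D1:**
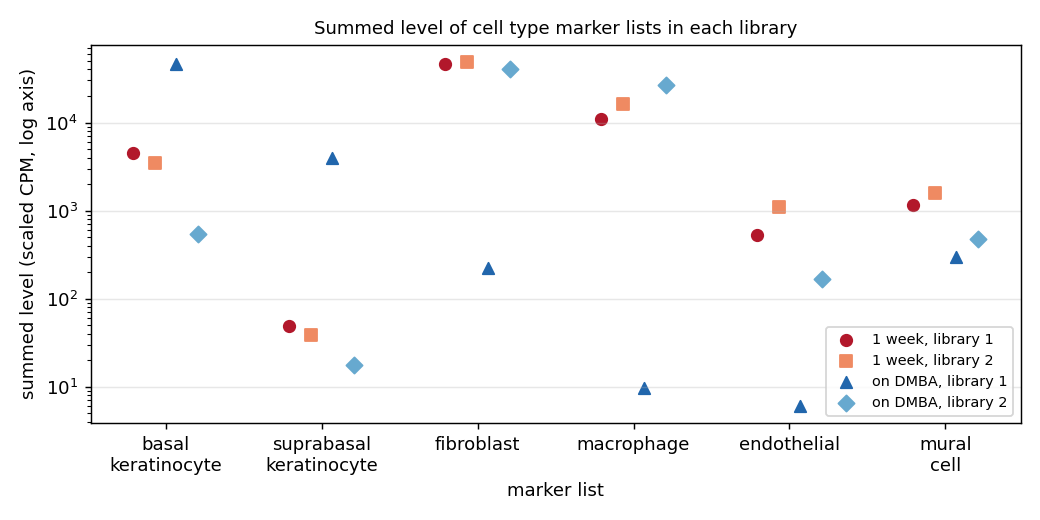
Summed level in scaled CPM (log axis) of 6 marker lists in each library, 1 week and on DMBA. On-DMBA library 1 is the highest library for both keratinocyte lists and the lowest for the other 4.

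Promoter sequences from RefSeq (GRCm38.p6, 250 bases before to 50 after the gene start) are shown for the members whose levels the account turns on. Abca1 is shown as the most abundant member in 3 libraries, Abcc9 and Abcg3 for large differences at a pseudocount of 0.5 among members whose groups did not overlap, and Abcb1a and Abcb1b as neighbouring, similar genes that stood on opposite sides of their on-DMBA levels. The table held 38 of the 50 members, and Abcg1 was not among them. Capitals mark matches, on either strand, to any of 7 short motifs: a repeat of the type that liver X receptors bind (GGTNA, 5 bases of any kind, GGTNA), the GC box GGGCGG, the inverted CCAAT box ATTGG, the xenobiotic response core GCGTG, the antioxidant response core TGACNNNGC, the AP-1 site TGANTCA and the TATA box TATAAA.
Abca1 promoter (chr4:53159846-53160145, minus strand): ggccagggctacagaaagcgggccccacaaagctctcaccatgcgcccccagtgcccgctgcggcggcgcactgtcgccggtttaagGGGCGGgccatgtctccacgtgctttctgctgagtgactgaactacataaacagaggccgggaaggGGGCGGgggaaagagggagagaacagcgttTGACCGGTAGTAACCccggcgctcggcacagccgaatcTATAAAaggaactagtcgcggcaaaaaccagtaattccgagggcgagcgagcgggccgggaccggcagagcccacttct
Abcc9 promoter (chr6:142702225-142702524, minus strand): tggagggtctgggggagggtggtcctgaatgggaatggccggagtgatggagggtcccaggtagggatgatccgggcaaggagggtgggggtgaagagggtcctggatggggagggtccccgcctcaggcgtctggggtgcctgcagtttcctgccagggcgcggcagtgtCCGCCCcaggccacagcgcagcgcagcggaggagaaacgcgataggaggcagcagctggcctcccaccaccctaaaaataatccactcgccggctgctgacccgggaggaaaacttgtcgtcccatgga
Abcg3 promoter (chr5:104982668-104982967, minus strand): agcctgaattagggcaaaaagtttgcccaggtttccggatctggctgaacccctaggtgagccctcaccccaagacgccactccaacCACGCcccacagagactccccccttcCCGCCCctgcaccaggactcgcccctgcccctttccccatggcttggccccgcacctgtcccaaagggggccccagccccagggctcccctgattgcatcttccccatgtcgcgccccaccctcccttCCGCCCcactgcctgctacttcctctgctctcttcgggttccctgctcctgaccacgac
Abcb1a promoter (chr5:8566841-8567140, plus strand): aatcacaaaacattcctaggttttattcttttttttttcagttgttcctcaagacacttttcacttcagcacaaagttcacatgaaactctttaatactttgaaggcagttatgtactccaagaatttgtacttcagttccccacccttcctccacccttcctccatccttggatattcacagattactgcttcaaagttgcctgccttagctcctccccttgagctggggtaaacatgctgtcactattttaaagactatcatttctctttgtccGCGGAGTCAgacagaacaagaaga
Abcb1b promoter (chr5:8797897-8798196, plus strand): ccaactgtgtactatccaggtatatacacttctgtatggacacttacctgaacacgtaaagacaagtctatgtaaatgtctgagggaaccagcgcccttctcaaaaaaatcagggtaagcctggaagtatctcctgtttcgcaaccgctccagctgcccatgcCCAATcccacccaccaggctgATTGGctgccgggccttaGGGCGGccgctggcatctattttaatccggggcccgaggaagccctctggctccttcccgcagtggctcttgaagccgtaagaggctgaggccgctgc

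The Abca1 window held the receptor-type repeat, starting 67 bases before the gene start and written on the opposite strand. It was the only 1 of the 38 member promoters with a match, against 0.725% of 27025 promoters. The Abca1 window also held 2 GC boxes and a TATA box that starts 29 bases before the gene start. Abcb1b had 2 inverted CCAAT boxes and 1 GC box, while the Abcb1a window had neither motif and held only an antioxidant response core after the start. A GC box was found in 17 of the 38 member promoters, against 35.9% of all promoters, and an inverted CCAAT box in 14 of 38, against 37.9%. The xenobiotic response core was found in 13 of 38, against 32.5%, and the antioxidant response core in 5 of 38, against 12.5%. The TATA box was found in 6 of 38, against 14.2%, and the AP-1 site in 0 of 38, against 7.93%. The windows differed in composition, with 2 CpG dinucleotides in Abcb1a, 12 in Abcb1b and 26 in Abca1, against a median of 7 over all promoters. A match describes these letters and is no evidence of binding. The motifs were picked with the results known, and the receptor-type repeat was picked because such an element is known in the Abca1 promoter, so its match there was built into the choice.

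Across the family the summed level was 2395 and 3268 at 1 week, and 2350 and 4669 on DMBA. Subfamily A varied most in absolute terms, with a sum of 1144 and 1591 at 1 week, and 418 and 3529 on DMBA. Subfamily G summed to 290 and 368 at 1 week, and 37.0 and 179 on DMBA, so both 1-week libraries were above both on-DMBA libraries. Abcg1 and Abcg3 carried most of this difference, while the groups of Abcg2 and Abcg8 overlapped. Subfamily B summed to 156 and 243 at 1 week, and 332 and 207 on DMBA. Subfamily C summed to 415 and 529 at 1 week, and 503 and 340 on DMBA. In B and C the groups overlapped. Per kilobase of exon (GENCODE vM21), Abca1 had the highest level of all members in both 1-week libraries (83.7 and 112) and in on-DMBA library 2 (161). In on-DMBA library 1 the ribosome recycling gene Abce1 was highest per kilobase (112), and Abca1 was at 11.4.

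**Figure D2:**
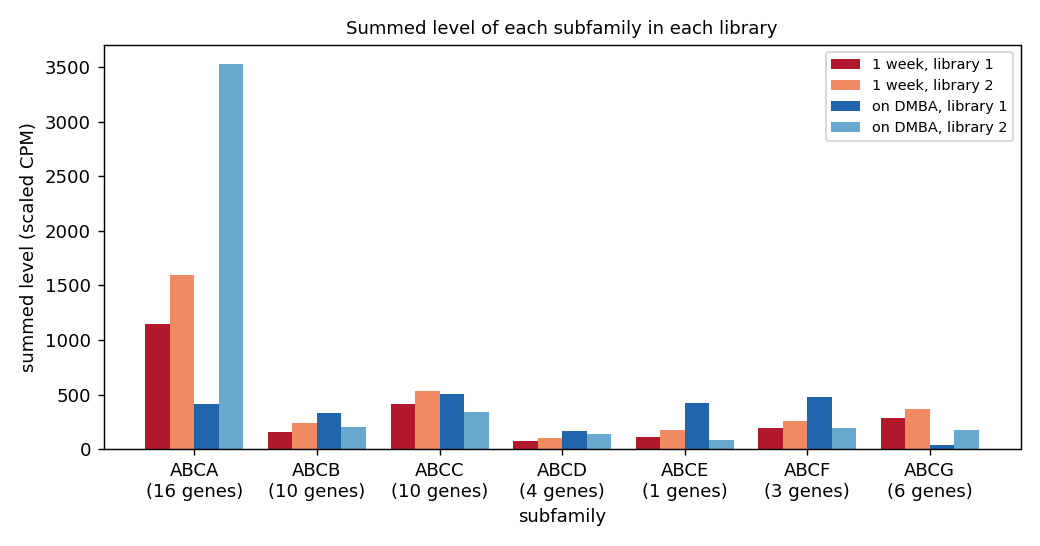
Bars give the summed scaled CPM of all members of each subfamily in each library, 1 week and on DMBA. The tallest bar is subfamily A in on-DMBA library 2, at 3529, and both 1-week bars of subfamily G, at 290 and 368, exceed its on-DMBA bars, at 37.0 and 179.

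Of the 50 members, 41 reached 1 scaled CPM in at least 2 libraries and entered the fit over all 15419 such genes. Limma at an adjusted p under 0.05 called 0 of the 41 higher and 0 lower, and it called 0% of all genes in each direction. At an unadjusted p under 0.05 limma had 2 members higher and 0 lower, against 352 and 30 of all 15419 genes. EdgeR on recovered reads also called 0 members, with 0% of all genes in each direction. Unadjusted, edgeR had 2 members higher and 0 lower, against 229 and 42 of all 15419 genes. DESeq2 called 0 members, with 0.104% of all genes higher and 0.0195% lower. Unadjusted, DESeq2 had 2 members higher and 3 lower, against 386 and 178 of all 15419 genes. The groups did not overlap for 5 members higher at 1 week, where this held for 14% of all genes, and for 7 members lower, where it held for 9.14%. With plain CPM these counts were 5 and 5, against 17.0% and 8.17% of all genes, without Abcg4, Abcb6 and Abcd4 and with Abca7. With median ratio scaling they were 5 and 8, against 12.7% and 12.4% of all genes, with Abcf3 added. The median difference was -0.11 over the 41 members and -0.02 over all genes.

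**Figure D3:**
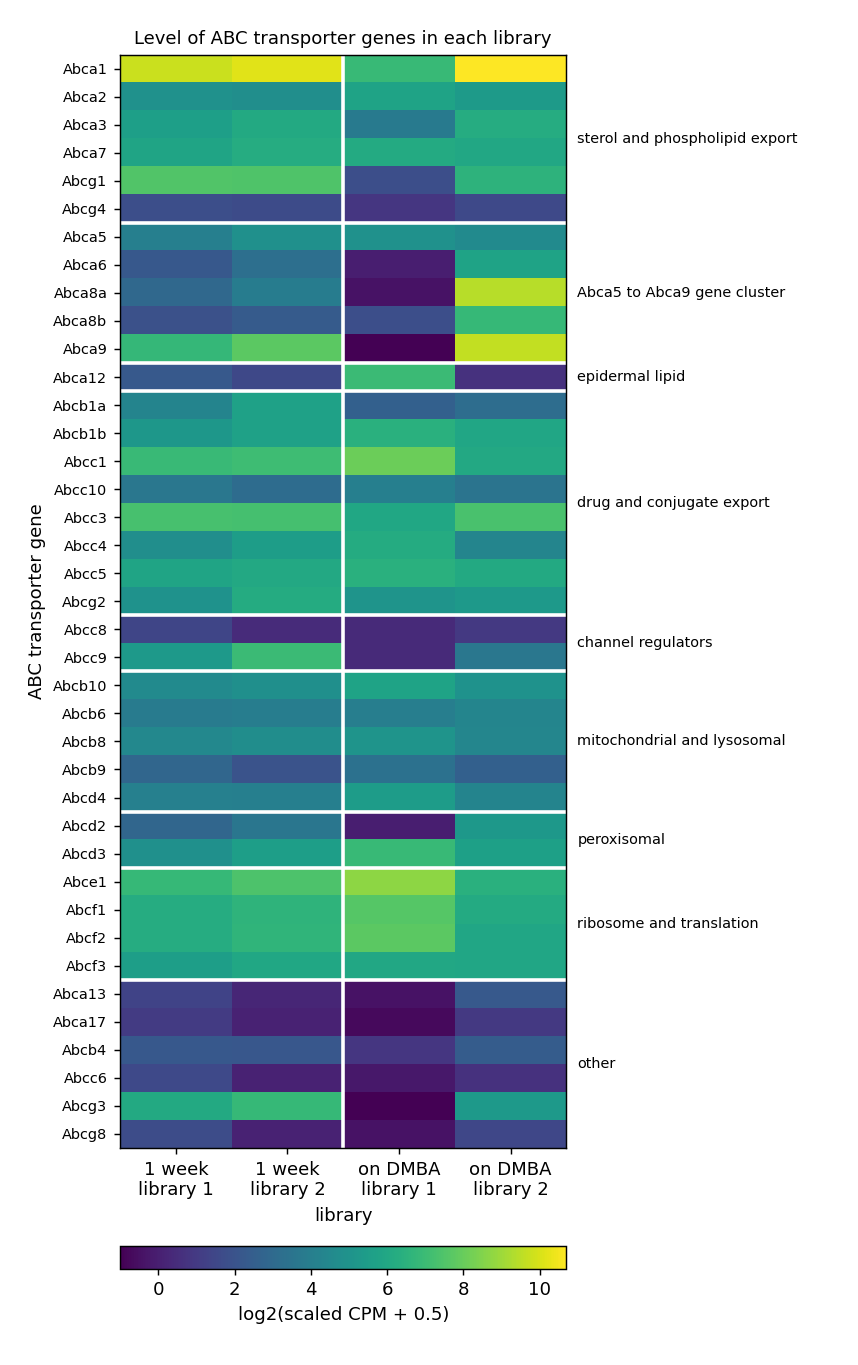
Colour gives log2(scaled CPM + 0.5) of 39 of the 41 members that passed the filter, grouped by role, in the 2 libraries at 1 week and the 2 on DMBA. Abca9, Abca8a, Abcg1, Abcg3 and Abcd2 are dark in on-DMBA library 1 alone, and Abca12 is bright there alone.

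Among the sterol and phospholipid exporters, Abcg1 was higher at 1 week in both libraries, while Abca1 was low in on-DMBA library 1 alone. Abcg1, which passes cholesterol to high-density lipoprotein, was at 185 and 178 at 1 week, and 2.97 and 95.3 on DMBA, a difference of 3.32 (SE 1.55). For Abcg1 the fitted value was 1.89 in edgeR and 1.84 in DESeq2. The 1-week libraries were close to each other and above both on-DMBA libraries. Abca1, which passes cholesterol and phospholipid to lipid-poor apolipoproteins, was at 859 and 1144 at 1 week, and 117 and 1657 on DMBA, a difference of 1.17 (SE 1.36). Its groups overlapped, with the highest and the lowest library both on DMBA. Both genes are known targets of the liver X receptors, which oxysterols activate.

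The other lipid exporters were at lower levels. Abca3, which packs surfactant lipid in lung, was at 47.4 and 67.5 at 1 week, and 13.2 and 75.0 on DMBA. Abca2, a lipid transporter of late endosomes, was at 29.4 and 26.7 at 1 week, and 54.4 and 40.6 on DMBA. Both 1-week libraries were below both on-DMBA libraries, by 0.74 on average (SE 0.50). Abca7, which acts in phospholipid handling and phagocytosis, was at 57.2 and 74.3 at 1 week, and 71.6 and 63.2 on DMBA. It had a range of 0.37 over the 4 libraries on the log2 scale and the groups overlapped. Abcg4, a close relative of Abcg1 found in brain, was low, at 2.97 and 2.71 at 1 week, and 1.31 and 2.51 on DMBA.

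Of 20 listed partners in sterol efflux, 19 were tested, 0 were called in either direction by limma, and the groups did not overlap for 3 higher and 1 lower, against 14% and 9.14% of all genes. Their median difference was 0.48, against -0.02 over all genes. Nr1h3, which encodes liver X receptor alpha, was at 45.6 and 59.8 at 1 week, and 1.66 and 9.87 on DMBA. Nr1h2, which encodes the beta receptor, was at 34.1 and 28.5 at 1 week, and 32.3 and 25.1 on DMBA. For Nr1h3 the 1-week libraries were above both on-DMBA libraries, and for Nr1h2 the groups overlapped. Apoe, an apolipoprotein that takes up exported cholesterol, was at 7514 and 8604 at 1 week, and 191 and 20746 on DMBA, with the same order of libraries as Abca1. Abca1, Abcg1, Nr1h3 and Apoe were all lowest in on-DMBA library 1. The macrophage marker sum was 9.74 in that library and 11051 or more in the others. The fibroblast and endothelial sums were also lowest there, at 222 and 6.06. In on-DMBA library 2 the macrophage sum was highest, at 26564, and so were Abca1 and Apoe. Abcg1 and Nr1h3 were below both 1-week libraries in on-DMBA library 2, unlike the macrophage sum.

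Abca8b, Abca8a, Abca9, Abca6 and Abca5 lie next to each other in this order on chromosome 11 and encode similar proteins. The first 4 were at their highest in on-DMBA library 2 and at their lowest in on-DMBA library 1. Abca8a was at 7.35 and 14.5 at 1 week, and 0.24 and 697 on DMBA, from 47, 102, 2 and 3883 reads. Abca9 was at 109 and 212 at 1 week, and 0 and 794 on DMBA. Abca8b was at 3.28 and 4.71 at 1 week, and 2.97 and 114 on DMBA. On-DMBA library 2 stood far above the 1-week libraries for these 3 genes, and on-DMBA library 1 was the lowest.

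Abca6 was at 4.22 and 9.13 at 1 week, and 0.47 and 54.0 on DMBA. Abca5, a lysosomal member, was at 15.8 and 29.0 at 1 week, and 30.2 and 23.9 on DMBA, and did not share the pattern of its neighbours. Set against on-DMBA library 2 alone, the mean of the 1-week libraries differed by -4.69 for Abca8b, -6.00 for Abca8a, -2.38 for Abca9, -3.02 for Abca6 and -0.15 for Abca5. Set against on-DMBA library 1 alone, it differed by 0.36, 3.88, 8.25, 2.79 and -0.49 in the same gene order, where the value of Abca9 depends on the pseudocount, since that library held none of its reads. For Abca8a, Abca9 and Abca6 the sign was positive against library 1 and negative against library 2. The fibroblast and macrophage marker sums were also lowest in on-DMBA library 1, at 222 and 9.74. In on-DMBA library 2 the fibroblast sum, at 40643, was below both 1-week sums, at 46179 and 48835, unlike these genes. The macrophage sum was highest there, at 26564, against 11051 and 16020 at 1 week. The part of these cell types in the levels of these genes was not tested. Abca8a and Abca8b shared 1.81% of the Abca8a transcripts' 50-base words. Only exact matches were counted, so this does not show how many reads could fall on both.

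**Figure D4:**
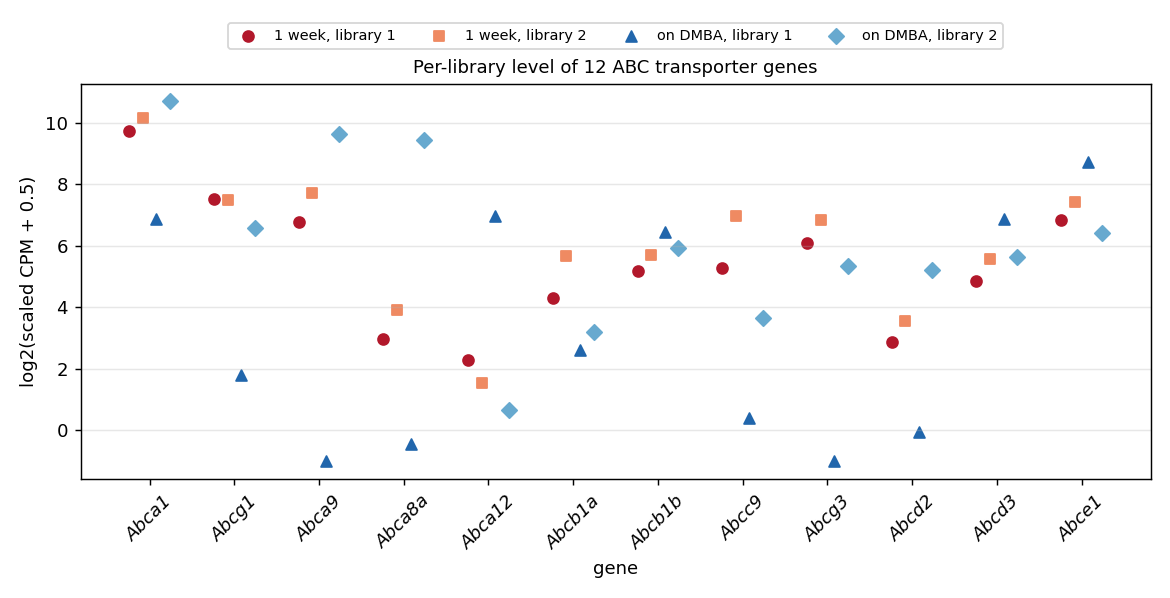
Points give log2(scaled CPM + 0.5) of 12 members in each library, 1 week to the left of on DMBA within each gene. Abcb1a, Abcc9, Abcg1 and Abcg3 have both 1-week points above both on-DMBA points, while Abca9 and Abca8a have their highest and lowest points on DMBA.

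Abca12, the lamellar granule lipid transporter whose loss in humans causes harlequin ichthyosis, was at 4.38 and 2.42 at 1 week, and 126 and 1.08 on DMBA. It was high in on-DMBA library 1 alone, with 1065 reads there and 28, 17 and 6 in the others. The suprabasal keratinocyte marker sum was 48.4 and 38.2 at 1 week, and 3928 and 17.6 on DMBA, in the same order of libraries. Of the 11 genes of epidermal lipid lamellae found in the table, 10 were tested, 0 were called, and the groups did not overlap for 1 higher and 0 lower, against 14% and 9.14% of all genes. Their median difference was -0.40, against -0.02 over all genes. Elovl4, which elongates the very long fatty acids of barrier lipids, was at 4.22 and 1.71 at 1 week, and 82.2 and 0.72 on DMBA, also high in on-DMBA library 1 alone.

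The P-glycoprotein genes Abcb1a and Abcb1b, which export drugs and other hydrophobic compounds, stood on opposite sides of their on-DMBA levels. Abcb1a was at 19.1 and 50.5 at 1 week, and 5.58 and 8.61 on DMBA, a difference of 2.09 (SE 0.73). Abcb1b was at 35.9 and 51.2 at 1 week, and 86.2 and 60.1 on DMBA, a difference of -0.74 (SE 0.52). The groups overlapped for neither gene. Per kilobase, the ratio of Abcb1a to Abcb1b was 0.46 and 0.85 at 1 week, and 0.056 and 0.12 on DMBA. These genes shared 15.5% of the Abcb1a transcripts' 50-base words and 17.8% of those of Abcb1b, so part of their reads could fall on either, and how the authors' counting treated such reads is not known. The endothelial marker sum had the same order of all 4 libraries as Abcb1a, which is known for its role in brain endothelium. The T cell, mast cell and mural cell (pericyte and smooth muscle) marker sums had this order too. The T cell sum was low, at 5.16 and 20.4 at 1 week, and 0.59 and 2.51 on DMBA. The mast cell sum was 12.8 and 42.6 at 1 week, and 0.83 and 7.72 on DMBA, and 1 of its 5 markers passed the filter. On DMBA the endothelial sum was 6.06 and 166, further apart than the values of Abcb1a. The part of these cell types in the level of Abcb1a was not tested. Abcb4, the next gene on the chromosome and a phosphatidylcholine transporter of bile, was at 4.22 and 3.99 at 1 week, and 1.31 and 4.85 on DMBA.

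The remaining drug and conjugate exporters overlapped between groups, apart from Abcc5. Abcg2, an exporter of drugs and porphyrins, was at 30.5 and 71.7 at 1 week, and 32.5 and 38.2 on DMBA. The 1-week libraries held both its lowest and its highest value. Abcc1, which exports glutathione conjugates, was at 120 and 132 at 1 week, and 266 and 65.5 on DMBA. Abcc4, an exporter of cyclic nucleotides and prostaglandins, was at 26.9 and 45.5 at 1 week, and 73.3 and 19.4 on DMBA. Both were highest in on-DMBA library 1 and lowest in on-DMBA library 2.

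Abcc3, which exports glucuronide conjugates, had the opposite order, at 156 and 150 at 1 week, and 61.4 and 160 on DMBA. Abcc5, a transporter of cyclic nucleotides, was at 55.6 and 65.9 at 1 week, and 84.4 and 67.8 on DMBA, below both on-DMBA libraries by a difference of -0.32 (SE 0.48). Abcc10, a further conjugate exporter, was at 12.03 and 8.27 at 1 week, and 15.9 and 10.8 on DMBA. Of the 14 listed regulators of xenobiotic export and partner carriers, 12 were tested and 0 called, with 0 higher and 2 lower without overlap (14% and 9.14% of all genes) and a median of 0.10 (-0.02 over all genes). Ahr, the receptor that DMBA-type hydrocarbons bind, was at 61.4 and 105 at 1 week, and 45.6 and 80.6 on DMBA, and the groups overlapped.

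Abcc9 was higher at 1 week than in either on-DMBA library. It encodes the sulphonylurea receptor SUR2, the regulatory subunit of ATP-sensitive potassium channels in vascular smooth muscle and pericytes. Abcc9 was at 38.3 and 125 at 1 week, and 0.83 and 12.02 on DMBA, a difference of 4.10 (SE 1.25). Against on-DMBA library 2 alone, the 1-week mean differed by 2.48, the largest positive difference of the 41 members in that comparison. Its channel pore partner Kcnj8 was at 15.5 and 38.4 at 1 week, and 0.24 and 3.77 on DMBA, with the same order of all 4 libraries. The related receptor gene Abcc8, which encodes SUR1, was at 2.19 and 0.86 at 1 week, and 0.83 and 1.44 on DMBA.

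Mural cells are the pericytes and smooth muscle of vessels. The sum of 6 mural markers, which include Kcnj8, was 1154 and 1584 at 1 week, and 296 and 476 on DMBA. The order of this sum over the 4 libraries was that of Abcc9. The groups did not overlap for 5 of the 6, all higher at 1 week, against 14% of all genes, and none was at 0. Rgs5, a pericyte marker, was at 150.04 and 461 at 1 week, and 0.36 and 36.6 on DMBA. Notch3, a receptor of mural cells, was at 99.7 and 162 at 1 week, and 195 and 61.2 on DMBA, highest in on-DMBA library 1 and unlike Abcc9. Acta2, smooth muscle actin, was at 267 and 324 at 1 week, and 43.3 and 38.0 on DMBA, with the on-DMBA libraries in the other order than for Abcc9. The endothelial sum had the order of Abcc9, and its 6 markers were all higher at 1 week without overlap. The T cell and mast cell marker sums had the order of Abcc9 too, but were low, at 0.59 and 0.83 in on-DMBA library 1. The part of these cell types in the level of Abcc9 was not tested.

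Abcg3, a rodent relative of Abcg2, was at 67.7 and 115 at 1 week, and 0 and 40.2 on DMBA. Both 1-week libraries were above both on-DMBA libraries, and the difference was 4.30 (SE 2.04) with the pseudocount of 0.5. On-DMBA library 1 held no Abcg3 read, where 3 reads would be 0.356 scaled CPM, so this difference depends on the pseudocount. For Abcg3 it was 5.46 with a pseudocount of 0.1 and 3.80 with 1, and the fitted value was 2.17 in edgeR and 2.12 in DESeq2. Against on-DMBA library 2 alone the 1-week mean differed by 1.12. Ptprc, expressed by leukocytes in general, was at 393 and 850.2 at 1 week, and 2.49 and 632 on DMBA, so on-DMBA library 1 was lowest for it too. The fibroblast, macrophage, endothelial and mural marker sums were also lowest in that library. The macrophage sum was highest in on-DMBA library 2, at 26564, where Abcg3 was below both 1-week libraries. The part of these cell types in the level of Abcg3 was not tested.

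Of the mitochondrial and lysosomal members described here, Abcb8, Abcb9, Abcb10 and Abcd4 were highest in on-DMBA library 1 and Abcb6 in on-DMBA library 2. Abcb10, which supports haem synthesis in mitochondria, was at 24.1 and 28.1 at 1 week, and 55.1 and 30.3 on DMBA. Abcd4, a lysosomal cobalamin transporter, was at 16.4 and 16.1 at 1 week, and 44.1 and 18.7 on DMBA. Abcb6, a porphyrin transporter, was at 14.2 and 15.3 at 1 week, and 15.3 and 19.2 on DMBA. The groups did not overlap for these 3 as deposited, though those of Abcd4 and Abcb6 did with plain CPM. Abcb6 was barely apart, at 15.26 in 1-week library 2 and 15.32 in on-DMBA library 1. Against on-DMBA library 2 alone the 1-week mean differed by -0.22 for Abcb10, -0.19 for Abcd4 and -0.37 for Abcb6.

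Abcb8, a mitochondrial member, was at 21.3 and 25.8 at 1 week, and 32.3 and 20.5 on DMBA. Abcb9, a lysosomal peptide transporter, was at 6.72 and 3.42 at 1 week, and 9.86 and 5.56 on DMBA. The groups of Abcb8 and Abcb9 overlapped. Of 13 listed genes of haem and iron-sulphur synthesis, all were tested and 0 called, with 1 higher and 1 lower without overlap (14% and 9.14% of all genes) and a median of -0.42 (-0.02 over all genes). Cpox, an enzyme of haem synthesis, was at 23.4 and 20.4 at 1 week, and 134 and 14.2 on DMBA, high in on-DMBA library 1 alone.

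The peroxisomal members Abcd2 and Abcd3 did not share an order of libraries. Abcd3, the abundant 70-kDa peroxisomal membrane protein, was at 28.8 and 47.1 at 1 week, and 117 and 49.2 on DMBA, a difference of -1.03 (SE 0.65). Its groups did not overlap, and 1-week library 2 came close to on-DMBA library 2. Abcd2, a peroxisomal fatty acyl-CoA importer, was at 6.88 and 11.4 at 1 week, and 0.47 and 36.8 on DMBA. Abcd2 was lowest in on-DMBA library 1 and highest in on-DMBA library 2, the order of Abca1 and of the macrophage marker sum, while Abcd3 was highest in on-DMBA library 1. Of 13 listed genes of peroxisomal import and oxidation, all were tested and 0 called, with 0 higher and 2 lower without overlap (14% and 9.14% of all genes) and a median of -0.15 (-0.02 over all genes).

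The members that act on ribosomes were highest in on-DMBA library 1, all 4 of them. Abce1, which splits ribosomes for recycling, was at 115 and 172 at 1 week, and 424 and 85.4 on DMBA. Abcf1, which binds the initiation factor eIF2, was at 74.7 and 98.1 at 1 week, and 193 and 70.0 on DMBA. Abcf2 was at 76.1 and 101 at 1 week, and 217 and 60.8 on DMBA. For these 3 the 1-week libraries lay between the on-DMBA libraries.

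Abcf3 was flatter, at 46.6 and 61.9 at 1 week, and 64.0 and 59.9 on DMBA. Of the 11 listed genes of translation initiation and recycling in the table, all were tested and 0 called, with 0 higher and 0 lower without overlap (14% and 9.14% of all genes) and a median of -0.44 (-0.02 over all genes). Among them Eef2, the elongation factor that moves the ribosome along, was at 2040 and 2518 at 1 week, and 4721 and 1706 on DMBA, the same order as Abce1.

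Weakly expressed members made up the rest. Abca13, Abca17, Abcc6 and Abcg8 passed the filter with at most 4.31 scaled CPM in any library. The 9 members below the filter were Abca4, Abca14, Abca15, Abca16, Abcb5, Abcb11, Abcc2, Abcc12 and Abcg5, with 0 to 22 reads per library and at most 3.14 scaled CPM. The bile salt exporter gene Abcb11 and the sterol exporter gene Abcg5 are best known from liver and gut. On-DMBA library 1, the most deeply read, had 5 members at 0 reads (Abca9, Abca14, Abcb5, Abcg3 and Abcg5), and 1-week library 2 had 1 (Abcg5).

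The libraries on DMBA differed from each other more than the libraries at 1 week did. As an absolute log2 difference, the median member was 1.46 apart between the on-DMBA libraries and 0.51 apart between the 1-week libraries, where the median gene of the table was 1.02 and 0.51 apart. The on-DMBA libraries were further apart than the 1-week libraries for 32 of 41 members, against 70.4% of all genes. More than 4-fold apart were 0 of 41 members between the 1-week libraries, against 2.3% of all genes, and 15 of 41 between the on-DMBA libraries, against 22.2%. Of those 15, Abca12, Abcc1 and Abce1 were higher in on-DMBA library 1 and 12 were higher in library 2. On-DMBA library 1 was the highest of the 4 for 18 members, against 41.7% of all genes, and the lowest for 20, against 37.5%. On-DMBA library 2 was the highest for 12 members, against 19.2%, and the lowest for 7, against 23.2%. The 1-week libraries 1 and 2 were the highest for 6 and 5 members, against 19.8% and 19.4%, and the lowest for 10 and 4, against 28.9% and 10.3%.

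Against each on-DMBA library in turn, the 1-week mean lay above both for 7 members and below both for 12, against 23.6% and 22.1% of all genes. It lay above library 1 and below library 2 for 14 members, against 24.8%, and below library 1 and above library 2 for 8, against 29.6%. Without on-DMBA library 1, limma called 2 members higher, with 2.35% of all genes, and 5 lower, with 0.999%. Without on-DMBA library 2 it called 11 members higher, with 14.3% of all genes, and 5 lower, with 10%. These 2 fits share the 1-week libraries and each has a single on-DMBA library, whose spread is assumed to be that of the 1-week group, and their counts are given only to show how much rests on each library.

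For Abcb1a the difference was 2.38 against on-DMBA library 1 and 1.79 against library 2, and for Abcc9 it was 5.71 and 2.48. For Abcg1 it was 5.71 and 0.92. Of these 3 members Abcb1a differed least between the on-DMBA libraries.

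**Figure D5:**
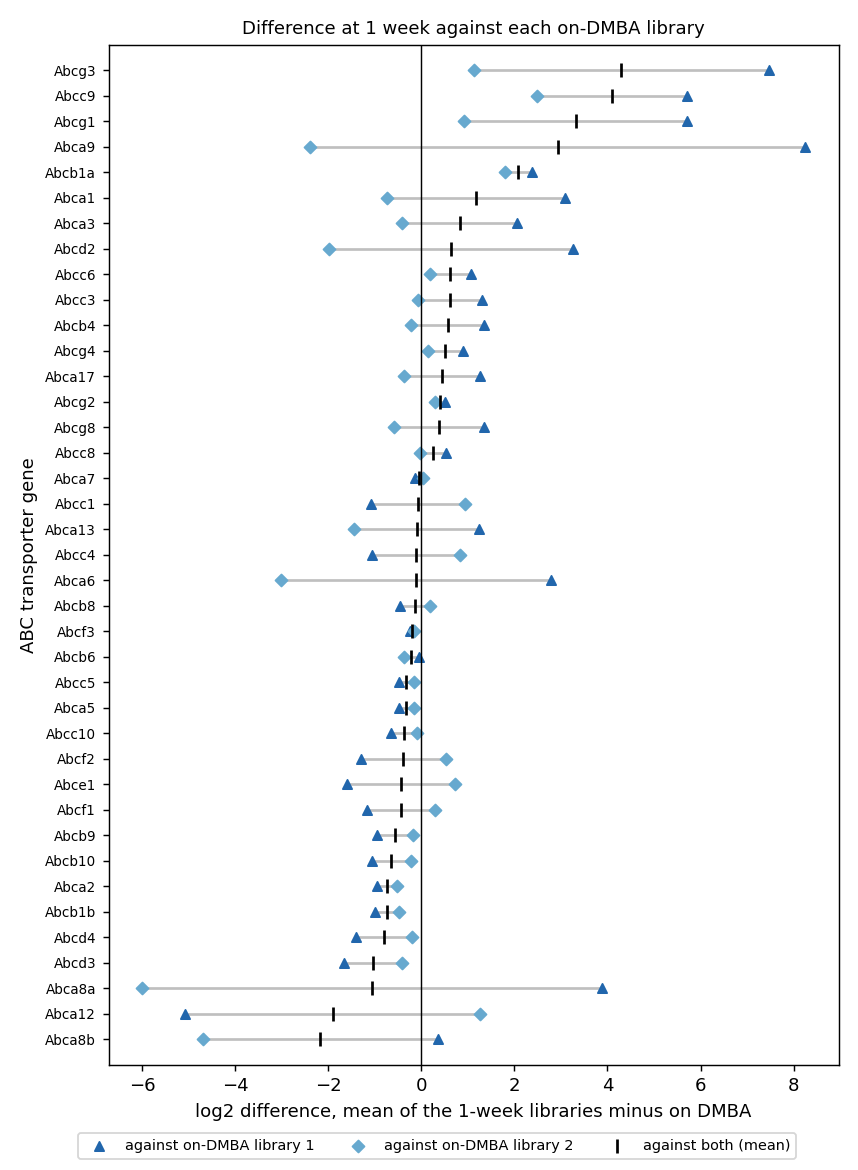
For 39 of the 41 members, the log2 difference of the 1-week mean from on-DMBA library 1 (triangles), from library 2 (diamonds) and from their mean (ticks). Abcb1a and Abcc9 lie right of 0 for both, while Abca9, Abca8a, Abca6 and Abcd2 lie right of 0 for library 1 and left of it for library 2.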

How the data were processed

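Libraries, 1 per mouse, were depleted of ribosomal RNA and made with a strand-keeping dUTP method, per the labels' protocols. Tools named, per the submitters' processing notes, were HTSeq, TopHat2 2.1, edgeR 3.2.3 and CASAVA 1.8.2, with build mm9. Annotation and strand setting: not given in the sources used here. In 1 table the authors deposited a normalised signal per gene (scaled CPM), whose columns sum to 867697 and 1092838 at 1 week and 1149287 and 1011509 on DMBA. All values (100%) were whole multiples of 1 step per library within 0.01 reads, which gave the recovered reads. A floor of 3 reads is 0.469 and 0.428 scaled CPM at 1 week and 0.356 and 0.538 on DMBA and covers counting error only.

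Genes that reached 1 scaled CPM in 2 libraries or more were fitted in R 4.3.3 with limma 3.58.1 (variance trend, two-sided, Benjamini-Hochberg over all genes, threshold 0.05) on log2(scaled CPM + 0.5). The planned unit was CPM and the log-scale test was kept. EdgeR 4.0.16 and DESeq2 1.42.0 on recovered reads were alternatives, and all were tested on simulated data with equal spread in both groups. The on-DMBA libraries were further apart than the 1-week libraries, so the simulation does not show how the fits behave on these data. The members, lists and the rule for named genes (every tested member by role, list genes as examples) were chosen with earlier results of these data known. Abcb1b was added to the promoters shown after its values were seen. Promoters and neighbours come from a later build (GRCm38) than the reads, so no value is tied to a coordinate. Values of some members are not reported here; counts and sums over the family include them.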

Additional observations from a re-analysis of the deposited data

How the results depend on the processing

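With limma and all 4 libraries, 0 members and 0 genes were called with a pseudocount of 0.1 or 1, with no filter or one at 5 scaled CPM, and under median ratio scaling, plain CPM, quantile normalization and no variance trend. EdgeR also called 0 and 0, and DESeq2 called 0 members and 19 genes. Leaving out 1 library, limma called 0 to 16 members and 0 to 3761 genes, with 0 of both without either 1-week library. EdgeR with 1 library left out, an alternative chosen after seeing the data, called 7 members and 851 genes without on-DMBA replicate 1 and 18 and 4318 without replicate 2. The replicate block gave 4 members and 288 genes. The numbers name different mice, so they do not pair the libraries. Deviations of same-numbered libraries correlated at 0.015 over genes. As the on-DMBA libraries differed widely, this value cannot exclude a smaller effect shared by replicate number. The members' median was -0.32 to 0.01 with all 4 libraries, -0.21 to 0.36 leaving out 1 library in limma and -0.24 to 0.52 in edgeR. The median of all genes was 0.11 with plain CPM and -0.15 with quantile normalization. Without on-DMBA replicate 1, 18 of 41 members changed sign in limma, and without on-DMBA replicate 2, 4 did. Without 1-week replicate 1, 9 did, and without 1-week replicate 2, 2 did. With all libraries, 8 changed sign under quantile normalization, 4 under plain CPM and 2 with a pseudocount of 0.1. Abcb1a, Abcc9, Abcg1 and Abcg3 were not among any of these, nor were the 7 members that were lower without overlap. Where groups do not overlap, leaving out 1 library or changing the pseudocount cannot change the sign. Those settings therefore say nothing on how stable these members are. Abca9 and Abcd2 turned negative in edgeR and DESeq2. With 2 mice per group, members under about 5 scaled CPM rest on few reads.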
